A study of Homo sapiens with 11 samples.

Results

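The genes TFF1, TFF3, AGR2 and AGR3 were followed by their gene symbols through every library of the series, where they are 4 of the 59087 genes counted. TFF1 and TFF3 encode trefoil factors, small secreted peptides held in a compact fold by disulfide bonds, which are released with mucins by epithelial cells. AGR2 and AGR3 encode anterior gradient proteins, which belong to the protein disulfide isomerase family of the endoplasmic reticulum, the enzymes that form and rearrange disulfide bonds in proteins on their way to the cell surface. In breast cancer TFF1 is a classical target of the estrogen receptor, and TFF3, AGR2 and AGR3 are commonly found in luminal tumours that carry this receptor. Tamoxifen binds the estrogen receptor and blocks its activity in breast cells.

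The libraries came from BT483 and T47D-TamR, established human breast cancer cell lines that carry the estrogen receptor. T47D-TamR is a derivative of T47D that was selected and kept in medium with tamoxifen. Both lines were first deprived of estrogen for 48 h, a treatment that every group shares, controls included. In the siRNA arm, each line was transfected for 72 h at 10 nM with NLK siRNA type 1, NLK siRNA type 2, a non-targeting control pool together with 0.5 µM tamoxifen, or the non-targeting pool alone. NLK is a protein kinase related to the MAP kinases. In the drug arm, T47D-TamR cells without siRNA received 0.5 µM VX-702, an inhibitor of the p38 kinases, 0.5 µM tamoxifen with DMSO, or DMSO alone. Each of the 11 groups held 1 library, 4 of BT483 and 7 of T47D-TamR, and nothing in the labels says that any were separate cultures of 1 condition, so p-values measure the spread between these libraries in fits where lines, siRNAs and arms stand in for replicates. Line, culture medium and tamoxifen history differ together and cannot be told apart.

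Library totals ran from 14637083 to 26915863 counts, and 3 counts, the floor below which a value was not told from 0, came to between 0.11 and 0.194 CPM, counts scaled to the size of each library. NLK itself fell with knockdown over both lines (log2 fold change -1.75, SE 0.21, adjusted p = 0.0308 in edgeR's quasi-likelihood test, adjusted over all genes by Benjamini-Hochberg, as throughout). Summed luminal epithelial markers (8 genes, none at 0) reached 13760 to 15650 CPM in BT483 and 5707 to 8285 CPM in T47D-TamR. Leukocyte and endothelial markers (8 genes, with 2 to 5 of them at 0) summed to at most 3.07 CPM in any library. Fibroblast and mesenchymal markers (8 genes) summed to 11.9 to 14.4 CPM in BT483 and 53.2 to 78.4 CPM in T47D-TamR, most of it COL1A1. In bulk RNA, fewer cells that express a gene and less RNA of it per cell cannot be told apart.

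The genes lie in a pair of clusters, all on the minus strand (GRCh38, GENCODE 29). TFF1 lies at chr21:42362282-42366594 and TFF3 at chr21:42311667-42315651. Their relative TFF2 sits between them, 11.2 kb from TFF1 and 30.7 kb from TFF3. AGR2 lies at chr7:16791811-16833433 and AGR3 at chr7:16859405-16881987, with 25971 bases between them. AGR3 overlaps the processed pseudogene RAD17P1 on the same strand, so reads could be shared between them, depending on how the authors counted.

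The siRNA sequences are shown because AGR2 differed between the NLK siRNAs, as described further on. They are the sense strands given in the labels, 5′ to 3′, and both target the mRNA of NLK on chromosome 17. Capitals mark the bases that pair with the seed of the guide strand, bases 2 to 8 counted from the guide's 5′ end.
NLK siRNA 1: gucaguaacagAUCCAAGa
NLK siRNA 2: gagcugaauuuGAAGACUa
The 3′ UTR of AGR2 in GENCODE 29, 1097 bases long, holds the seed match of siRNA 2 a single time, at base 66 after the stop codon. It is printed with its flanks, the match in capitals, and the whole stretch lies at chr7:16792826-16792853 (GRCh38, minus strand).
AGR2 3′ UTR site: aagaagtgtgaGAAGACTggctagtgtg
The seed match of siRNA 2 was absent from the 3′ UTRs of TFF1, TFF3 and AGR3, and that of siRNA 1 from the 3′ UTRs of all 4 genes. Over its whole length the AGR2 transcript held the match of siRNA 2 at 2 places and that of siRNA 1 at 1 place, and the other 3 transcripts held neither. Over all 19113 genes with a 3′ UTR, 2139 genes (11.2%) held the match of siRNA 2 and 1708 genes (8.94%) that of siRNA 1. The labels number the siRNAs 1 and 2 and the samples type 1 and type 2, and the link between them was read from that numbering alone. A seed match is a stretch of letters and does not show that the siRNA acts there.

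Promoters are shown for the AGR pair because these adjacent genes stood apart in their levels between the lines. Of the 4 genes, 2 had an entry in the RefSeq promoter table (GRCh38.p14), and TFF1 and TFF3 are named only. Each sequence is the 250 bases before the gene's start on the minus strand, at chr7:16805000-16805249 for AGR2 and chr7:16881984-16882233 for AGR3; for AGR2 this start lies inside the longer GENCODE gene. Capitals mark GGTCA or its reverse complement (the core of an estrogen response element), TGTTTNC (a forkhead motif) and TATAAA.
AGR2: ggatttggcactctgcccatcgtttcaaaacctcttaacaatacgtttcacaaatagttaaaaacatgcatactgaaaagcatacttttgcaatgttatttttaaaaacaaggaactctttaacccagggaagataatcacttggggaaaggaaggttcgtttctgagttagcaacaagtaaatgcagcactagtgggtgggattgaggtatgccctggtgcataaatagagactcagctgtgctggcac
AGR3: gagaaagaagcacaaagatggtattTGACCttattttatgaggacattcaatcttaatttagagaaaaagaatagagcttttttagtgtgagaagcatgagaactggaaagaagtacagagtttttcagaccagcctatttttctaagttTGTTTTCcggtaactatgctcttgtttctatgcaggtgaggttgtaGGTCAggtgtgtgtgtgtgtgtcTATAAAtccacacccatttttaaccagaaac
Both strands were searched, and the window of AGR3 held GGTCA on the plus orientation of the gene and on the opposite one, TGTTTNC and TATAAA, while that of AGR2 held none of them. GGTCA occurred in 32.6% of 35116 promoter windows of this length, TGTTTNC in 15.5% and TATAAA in 10.7%. Of the other motifs searched, GATAA (20.4% of windows) occurred in AGR2 alone of the pair. Neither window held the palindromic estrogen response element (0.0399% of windows), the XBP1 type motif TGACGTGG (0.612%) or TGANTCA (6.57%). The letters in these windows say nothing about what binds there.

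TFF1 was at a high and AGR3 at a moderate level in BT483, and both were near the floor in T47D-TamR. TFF3 was high in BT483 and low, though above the floor, in T47D-TamR, whereas AGR2 was abundant in both lines. A difference between the lines was common, with an adjusted p under 0.05 for 70.7% of all genes tested. TFF1 had 468.8, 711.9, 64.45 and 680.5 CPM in BT483 with NLK siRNA type 1, NLK siRNA type 2, control siRNA with tamoxifen and control siRNA. In T47D-TamR it had 1 count with NLK siRNA type 2, 4 counts with control siRNA and 0 counts in the other 5 libraries. No T47D-TamR library came near the lowest BT483 library, the one with tamoxifen. TFF1 was thus 4290-fold higher in BT483 than in T47D-TamR with control siRNA (95% counting interval 1675 to 15750). Set against 3 counts in T47D-TamR, where it had 0, it was 3881-fold higher with NLK siRNA type 1 and 554.5-fold higher with tamoxifen. The 95% counting intervals of these pairs began at 3156 and 450.4.

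TFF3 had 249.3, 489.1, 115.1 and 314.1 CPM in BT483 with NLK siRNA type 1, type 2, control siRNA with tamoxifen and control siRNA. In T47D-TamR it lay between 1.11 and 2.3 CPM in the 7 libraries (29 to 55 counts). TFF3 was therefore low but measurable in T47D-TamR. In the pairs that shared a treatment it was 140.7-fold higher in BT483 with NLK siRNA type 1, 341.4-fold with type 2, 72.5-fold with tamoxifen and 198-fold with control siRNA.

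AGR3 had 5.1, 8.74, 6.53 and 5.72 CPM in BT483 with NLK siRNA type 1, type 2, control siRNA with tamoxifen and control siRNA, from 79, 239, 175 and 101 counts. In T47D-TamR it had between 0 and 3 counts in every library, at or under the floor. AGR3 was at least 48.1-fold higher in BT483 than in T47D-TamR with control siRNA and at least 56.2-fold higher with tamoxifen. With NLK siRNA type 1, at 3 counts in T47D-TamR, the ratio was 42.2 (counting interval 13.9 to 209.1).

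AGR2 had 226.4, 75.7, 208.9 and 230.3 CPM in BT483 with NLK siRNA type 1, type 2, control siRNA with tamoxifen and control siRNA. In the siRNA arm of T47D-TamR it had 235.8, 134.3, 260.9 and 296.5 CPM in the same order. In the drug arm it had 189, 232.8 and 246.5 CPM with VX-702, tamoxifen with DMSO, and DMSO. The lowest library of each line was the one with NLK siRNA type 2, and the ranges of the lines overlapped.

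**Figure D1:**
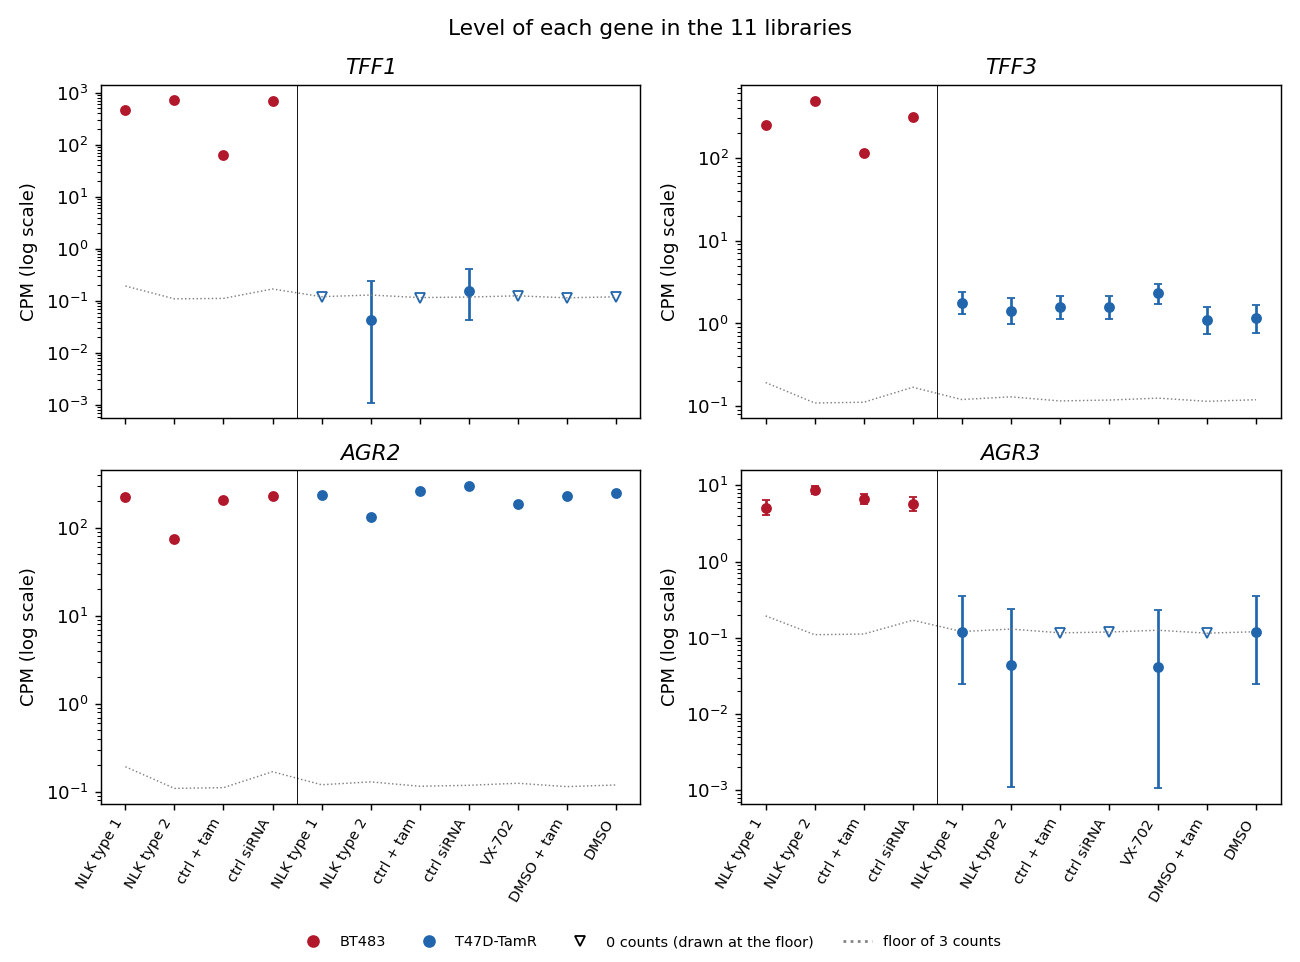
Level of each gene (CPM, log axis) in 4 BT483 libraries (red) and 7 T47D-TamR libraries (blue), with bars for exact 95% Poisson intervals, which cover counting error only and are often smaller than the point; open triangles are libraries with 0 counts, drawn at the floor of 3 counts (dotted). TFF1, TFF3 and AGR3 are higher in BT483, and AGR2 is lowest in each line with NLK siRNA type 2.

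The line comparison, which asks how far the lines differ on average over the conditions they share, was fitted over the 8 siRNA libraries with the condition as a block. These conditions include both NLK siRNAs and tamoxifen, so a treatment effect that differs between the lines enters the average. All 4 genes were called: 3 were higher in BT483 and AGR2 was lower. Over all genes tested the same call was made for 70.7%, with 35.6% higher in BT483 and 35.1% lower, so a difference between the lines was common. By size, the log2 fold change of TFF3 lay at percentile 98.4 and that of AGR3 at percentile 98.2 of all genes tested, below TFF1. The log2 fold change of TFF1 was 13.05 (SE 0.30, adjusted p = 1.303e-10), ranking 12 by p among 21990 genes. It was 7.34 for TFF3 (SE 0.40, adjusted p = 1.795e-05) and 7.15 for AGR3 (SE 0.49, adjusted p = 1.691e-07). The fitted values of TFF1 and AGR3 depend on the prior count, since T47D-TamR libraries at 0 entered the fit. AGR2 had a log2 fold change of -0.39 (SE 0.13, adjusted p = 0.0162), and in paired libraries it stood at 96.0% of T47D-TamR with NLK siRNA type 1, 56.4% with type 2, 80.1% with tamoxifen and 77.7% with control siRNA. The AGR2 call was lost without the NLK siRNA type 2 library of BT483 (log2 fold change -0.26, adjusted p = 0.112) or of T47D-TamR (-0.27, adjusted p = 0.0986), with at least 10 counts asked of every library (-0.28, adjusted p = 0.0766), with limma (-0.22, adjusted p = 0.255) and with no block for condition (-0.27, adjusted p = 0.547).

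Levels of different genes were compared per length, in TPM, a length-scaled measure of abundance, from the deposited log2(TPM + 1) values. In all 4 BT483 libraries the order was TFF1, TFF3, AGR2, AGR3 from high to low. With control siRNA TFF1 had 4193 TPM and ranked 21 among all genes, TFF3 had 815.3 TPM, AGR2 252.6 TPM and AGR3 15.0 TPM. Together the 4 genes made up 0.388% of TPM in BT483 with NLK siRNA type 1, 0.57% with type 2, 0.0904% with tamoxifen and 0.528% with control siRNA. In all 7 T47D-TamR libraries AGR2 was the highest at 138.5 to 287.4 TPM, TFF3 followed at 2.52 to 4.99 TPM, and TFF1 and AGR3 could not be ordered because both were near the floor. The ratio of TFF1 to TFF3 in TPM was 4.46 with NLK siRNA type 1, 3.46 with type 2, 1.33 with tamoxifen and 5.14 with control siRNA in BT483, so the trefoil factors were closest in the tamoxifen library. The ratio of AGR2 to AGR3 was 18.5, 3.61, 13.3 and 16.8 in the same order, and was lowest with NLK siRNA type 2.

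TFF2, the trefoil factor that lies between TFF1 and TFF3 and is best known from gastric mucus, ran the other way. It had 0 counts in 3 BT483 libraries and 1 count in the library with NLK siRNA type 2, and 54 to 180 counts in the 7 T47D-TamR libraries. Its log2 fold change was -8.20 for BT483 against T47D-TamR (SE 0.54, adjusted p = 1.162e-07). The other relative, TXNDC12, a thioredoxin-like protein of the endoplasmic reticulum that is the closest family member of the AGR proteins, was also lower in BT483 (log2 fold change -2.11, SE 0.16, adjusted p = 2.985e-07). Each family thus held members on both sides of the line difference.

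Of 9 neighbours of the trefoil cluster that were tested, 5 were higher in BT483 and 2 lower, in total near the 70.7% called over all genes (35.6% higher, 35.1% lower). TMPRSS3, a serine protease gene next to TFF1, had a log2 fold change of 5.16 (SE 0.32, adjusted p = 2.683e-06), ABCG1, a cholesterol exporter, of 4.73 (SE 0.16, adjusted p = 8.125e-10) and RIPK4, a kinase of epithelial differentiation, of -1.95 (SE 0.13, adjusted p = 1.422e-07). SLC37A1 (0.89, adjusted p = 1.388e-05) lay beyond TMPRSS3. ZBTB21 at -0.05 (adjusted p = 0.765) and PRDM15 at -0.33 (adjusted p = 0.0506), farther from the cluster, did not pass. Of 6 tested neighbours of the AGR pair, 5 were lower in BT483 and none higher, against the same shares over all genes. They included AHR, the aryl hydrocarbon receptor, at -3.39 (SE 0.15, adjusted p = 4.75e-09), BZW2, a translation regulator, at -1.89 (SE 0.12, adjusted p = 9.335e-08), and TSPAN13, a tetraspanin, at -0.57 (SE 0.10, adjusted p = 0.000329). AGR3 alone of this locus, counting the listed neighbours and AGR2, was called higher in BT483.

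**Figure D2:**
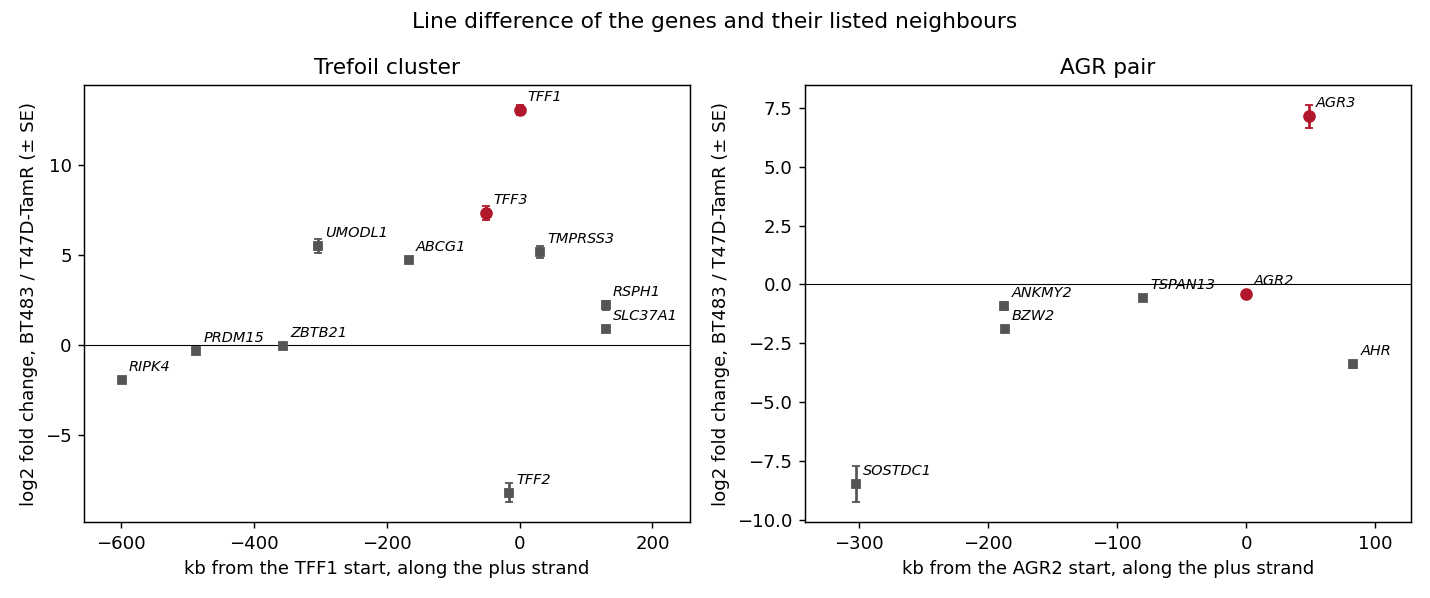
Log2 fold change of BT483 against T47D-TamR (± SE from edgeR) for the trefoil and AGR genes (red circles) and their listed neighbours (grey squares; SNX13 is not drawn), placed by distance in kb from the start of TFF1 (left) and of AGR2 (right). TFF1 and TFF3 stand above 7 with TFF2 between them at -8.20, and AGR3 stands above 7 next to AGR2 at -0.39.

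The gene groups around these proteins are given beside the 35.6% of all genes that were called higher in BT483 and the 35.1% called lower. Of 35 tested estrogen response genes 32 were higher in BT483 and 1 lower, with a median log2 fold change of 2.40 against 0.01 over all genes. Of 19 luminal transcription factors 13 were higher and 3 lower. Among them ESR1, the estrogen receptor gene, averaged 134.6 CPM in BT483 and 24.1 CPM in T47D-TamR (log2 fold change 2.40, SE 0.12, adjusted p = 1.367e-08). TFAP2B averaged 0 CPM in BT483 and 259.4 CPM in T47D-TamR. Its fitted value of -15.66 (adjusted p = 9.44e-10) depends on the prior count. Of 20 secreted proteins of luminal and glandular cells 14 were higher and 3 lower, led by MUC5B, a gel-forming mucin, which averaged 710.9 CPM in BT483 and 0.208 CPM in T47D-TamR (log2 fold change 11.83, adjusted p = 4.506e-08). The lactoferrin gene LTF, at -3.41 (adjusted p = 3.036e-06), was lower.

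Among 22 genes of the protein disulfide isomerase family and its oxidases, the enzyme class of AGR2 and AGR3, 4 were higher in BT483 and 13 lower, with a median log2 fold change of -0.44. PDIA2 at 3.56 (adjusted p = 3.478e-07) was among the higher ones, and TXNDC5 at -2.03 (adjusted p = 3.528e-07), ERO1A, an oxidase that recharges the isomerases, at -1.58 (adjusted p = 2.914e-07) and P4HB at -0.93 (adjusted p = 4.226e-05) were lower. Of 22 unfolded protein response genes 6 were higher and 12 lower. For these groups and the luminal factors, the genes called in either direction were not far above the 70.7% over all genes. Of 9 receptors and partners proposed for trefoil and AGR proteins 6 were higher and 3 lower. ACKR3, a chemokine receptor, reached 12.18 (adjusted p = 5.756e-08), with 0 counts in 6 of the 7 T47D-TamR libraries, CXCR4 had 3.82 (adjusted p = 9.488e-06), EGFR -2.52 (adjusted p = 3.715e-08) and LYPD3, a proposed AGR2 receptor, 0.94 (adjusted p = 1.419e-05). Fibroblast and mesenchymal markers were lower in BT483 for 5 of 7 tested, and their part in the line difference was not tested.

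Tamoxifen in BT483, the comparison that asks how the cells respond to blocking the estrogen receptor, lowered TFF1. It shares the control siRNA library with the knockdown comparisons. The gene had 64.45 CPM with tamoxifen, against 680.5 CPM with control siRNA alone, or 9.47% of its control (counting interval 9.0 to 9.96%). It was the lowest of the 4 BT483 libraries, the next being that with NLK siRNA type 1 at 468.8 CPM. The log2 fold change was -3.40 (SE 0.33, adjusted p = 0.000828), ranking 57 by p. In this comparison 357 of 24023 genes were called, 1.49% of them, and 336 were lower (1.4%). TFF1 was the 1 member of 4 that was called. The tamoxifen effect in BT483 rests on 1 pair of libraries, and its spread was taken from the other libraries of the fit. The count of genes called was 190 to 208 when any of the 4 T47D-TamR tamoxifen and control libraries was left out, and TFF1 was called in each of those fits. TFF1 did not pass with limma on the deposited log2(TPM + 1) values (-3.46, adjusted p = 0.0632) or with no block for line and arm (-1.82, adjusted p = 0.796).

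TFF3 stood at 115.1 CPM with tamoxifen and 314.1 CPM with control siRNA in BT483, or 36.7% of its control (35.1 to 38.3%). This was the lowest of the 4 BT483 libraries, but the log2 fold change of -1.45 did not pass the test (SE 0.41, adjusted p = 0.244). It passed without the NLK siRNA type 1 library of BT483 (log2 fold change -1.44) or the type 2 library (-1.45). Both libraries also enter the estimate of the spread, and TFF3 had 249.3 CPM with type 1 and 489.1 CPM with type 2. It also passed with DESeq2 (adjusted p = 0.0239) and with no filter on low counts (adjusted p = 2.556e-07). AGR2 had 208.9 CPM with tamoxifen and 230.3 CPM without in BT483 (log2 fold change -0.14, SE 0.92, adjusted p = 1). AGR3 had 6.53 CPM with tamoxifen and 5.72 CPM without (0.19, SE 0.50, adjusted p = 1). The estimate of the spread for AGR2 in this fit includes the libraries of both NLK siRNAs, and its SE is wide.

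In T47D-TamR tamoxifen moved neither TFF3 nor AGR2 past the test. TFF3 had 1.59 CPM with tamoxifen and 1.59 CPM without in the siRNA arm, and 1.11 CPM with tamoxifen and 1.16 CPM with DMSO in the drug arm (log2 fold change -0.03, SE 0.43, adjusted p = 1). AGR2 stood at 88.0% of control in the siRNA arm (counting interval 85.1 to 90.95%) and at 94.4% in the drug arm (91.1 to 97.9%), with a log2 fold change of -0.13 (SE 0.65, adjusted p = 1). TFF1 and AGR3 were at or near the floor on both sides, and no fold is given for them. In this comparison 53 genes were called (0.221%), all lower. The test of the difference in tamoxifen response between BT483 and T47D-TamR called 166 genes (0.691%), 165 of them lower (0.687%), and neither TFF3 (-1.42, SE 0.59, adjusted p = 0.554, or 0.00815 with no filter on low counts) nor AGR2 (-0.01, SE 1.12, adjusted p = 1).

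Over all 3 tamoxifen pairs together 10 genes were called (0.0416%), each of them lower, and TFF1 was 1 of them (log2 fold change -3.46, SE 0.37, adjusted p = 0.0101). The BT483 pair held nearly all counts of TFF1, and its T47D-TamR libraries held 0 counts with tamoxifen in both arms and 4 and 0 counts without. The call was lost without BT483 control siRNA with tamoxifen (adjusted p = 0.917), BT483 control siRNA (0.115), T47D-TamR with NLK siRNA type 2 (0.0514) or with tamoxifen in the siRNA arm (0.0542), with DESeq2 (0.087) or limma (0.834), and with no block (1). TFF3 had a log2 fold change of -0.74 (SE 0.47, adjusted p = 0.881), AGR2 of -0.14 (SE 0.40, adjusted p = 0.98) and AGR3 of -0.04 (SE 0.54, adjusted p = 0.999).

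The estrogen response genes listed beside TFF1 showed how it compared. In BT483 with tamoxifen 33 of 35 had a negative log2 fold change, with a median of -1.04 against 0.00 over all genes. Of the 35, 14 were called, each of them lower, where 1.4% of all genes tested were called lower. GREB1, a cofactor of the estrogen receptor, fell to 78.8 CPM with tamoxifen, against 776.6 CPM without (log2 fold change -3.30, SE 0.25, adjusted p = 2.262e-05). The log2 fold change was -4.69 for CXCL12, a chemokine (SE 0.59, adjusted p = 0.00122), -4.04 for SUSD3 (SE 0.39, adjusted p = 0.000115) and -3.94 for GFRA1, a growth factor receptor (SE 0.36, adjusted p = 0.000537). Cell cycle members of the list moved less, with MYC at -1.85 (adjusted p = 0.00321) and CCND1, cyclin D1, at -1.08 (adjusted p = 0.0173). The drop of TFF1 was of the size of those of GREB1 and PDZK1 (-3.43, adjusted p = 0.000828). In T47D-TamR 18 of 35 had a positive and 17 a negative log2 fold change, and none was called, where 0.221% of all genes were. Some of these were near the floor there, where the sign of a fitted value says little. Of the 29 with at least 10 counts summed over the libraries compared, 12 had a negative value, and the median was 0.12.

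Among the trefoil neighbours TMPRSS3 was the 1 of 9 tested that was called with tamoxifen in BT483. It had 31.4 CPM with tamoxifen and 101.9 CPM with control siRNA (log2 fold change -1.70, SE 0.30, adjusted p = 0.00779). None of the 6 AGR neighbours, 22 disulfide isomerase genes, 22 unfolded protein response genes, 19 luminal transcription factors or 9 receptors and partners was called. Over all genes tested 1.49% were called, so few or no calls in lists of this size say little. Of the 20 secreted proteins STC2, a stanniocalcin that is also in the estrogen list, fell (-2.32, adjusted p = 0.00425) and CLU, clusterin, rose (1.06, SE 0.22, adjusted p = 0.0251). Fibroblast markers summed to 11.9 CPM with tamoxifen and 14.4 CPM with control siRNA in BT483, and none of 7 was called.

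**Figure D3:**
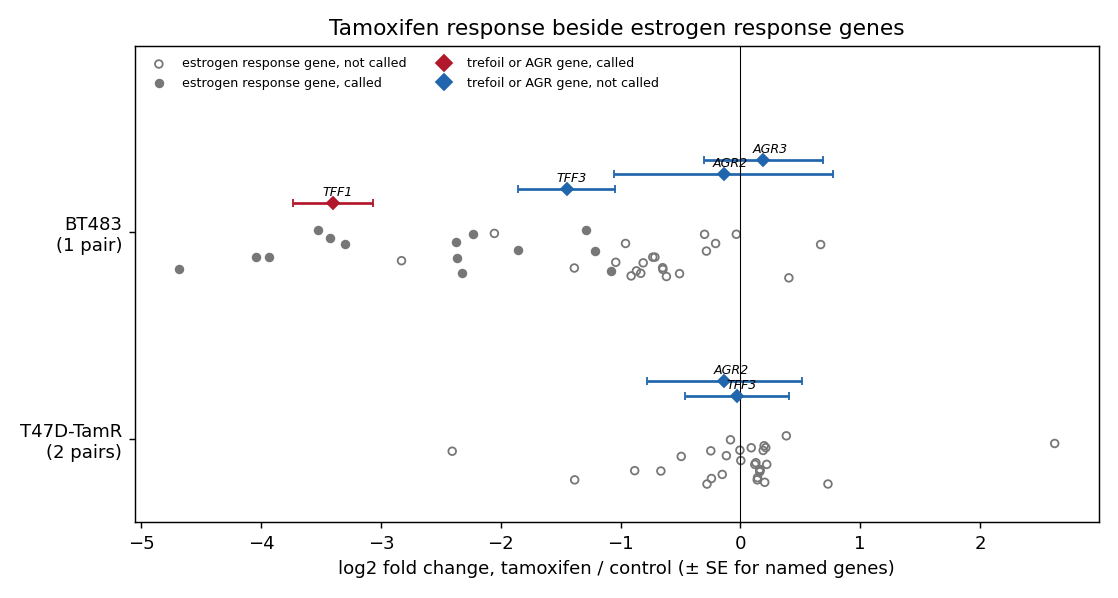
Log2 fold change of tamoxifen against control in BT483 (1 pair) and T47D-TamR (2 pairs), with diamonds for the trefoil and AGR genes (± SE) and circles for estrogen response genes with at least 10 counts summed over the libraries compared (35 genes in BT483, 29 in T47D-TamR; filled where called). TFF1 at -3.40 lies among the filled circles in BT483, while TFF3 and AGR2 lie near 0 in T47D-TamR, where TFF1 and AGR3 are left out because they are at the floor.

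Knockdown of NLK, the question of the siRNA arm, called none of the 4 genes over both lines. The comparison set 4 NLK siRNA libraries against 2 control siRNA libraries, and 1 of 24023 genes was called, NLK (0.00416%); 1331 genes had an unadjusted p under 0.05. The log2 fold change was -0.30 for TFF1 (SE 0.28, adjusted p = 0.912), 0.26 for TFF3 (SE 0.41, adjusted p = 0.952), -0.63 for AGR2 (SE 0.40, adjusted p = 0.882) and 0.31 for AGR3 (SE 0.52, adjusted p = 0.952). None of the listed groups had a called member. The directions of TFF3 and AGR3 turned negative without the NLK siRNA type 2 library of BT483, at -0.17 and -0.01. TFF1 was -2.48 without BT483 control siRNA, -0.64 without NLK siRNA type 2 of BT483, -0.19 without T47D-TamR control siRNA and -0.07 without type 1 of BT483. AGR2 was -1.06 without type 1 of BT483 and -0.40 without type 2 of BT483. None of these values passed the test. With no filter on low counts AGR2 passed (adjusted p = 0.000604), together with 249 genes called.

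By line, knockdown called 1 gene in BT483 (0.00416%), which was NLK (-2.13, adjusted p = 0.0198), and 1 in T47D-TamR (0.00416%), which was not NLK (-1.38, adjusted p = 0.333). In BT483 the values were -0.20 for TFF1 (SE 0.26), 0.23 for TFF3 (SE 0.35), -0.61 for AGR2 (SE 0.78) and 0.29 for AGR3 (SE 0.44), each with an adjusted p of 1. AGR2 there was -1.59 without type 1 and -0.03 without type 2, and neither value passed. In T47D-TamR they were 0.00 for TFF3 (SE 0.47, adjusted p = 1) and -0.65 for AGR2 (SE 0.72, adjusted p = 0.94), the second being -1.12 without type 1 and -0.31 without type 2. The difference between the lines called 0 genes at the adjusted threshold and 735 at an unadjusted p under 0.05, and it was 0.23 for TFF3 (SE 0.58) and 0.04 for AGR2 (SE 1.07). DESeq2 called 0 of the 4 genes for each of these knockdown comparisons.

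The siRNAs themselves differed in AGR2. In BT483 AGR2 stood at 32.9% of control with NLK siRNA type 2 (counting interval 31.1 to 34.6%) and at 98.3% with type 1 (93.9 to 102.8%). In T47D-TamR it stood at 45.3% with type 2 (43.4 to 47.2%) and at 79.5% with type 1 (76.8 to 82.3%). In both lines type 2 gave the lower level, while NLK was reduced to 18.04 and 41.7% of control with type 2 and to 28.4 and 35.4% with type 1 in BT483 and T47D-TamR. Across both lines AGR2 was lower with type 2 than with type 1 (log2 fold change -1.19, SE 0.17, adjusted p = 0.00642), ranking 23 by p. The comparison called 113 genes (0.47%), 65 lower with type 2 (0.271%) and 48 higher (0.2%), and NLK was not among them (-0.14, SE 0.28, adjusted p = 0.94).

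Set against control siRNA on its own, a comparison chosen after seeing these values, type 2 lowered AGR2 (log2 fold change -1.35, SE 0.16, adjusted p = 0.00257), ranking 10 by p among 227 genes called (0.945%). Type 1 gave -0.16 (SE 0.16, adjusted p = 0.999), with 1 gene called. These comparisons share the control libraries with the comparison of both siRNAs together. The call for type 2 against type 1 rests on 4 libraries. It was lost without BT483 with type 2 (log2 fold change -0.91, adjusted p = 0.0802), BT483 with type 1 (-0.95, adjusted p = 0.154) or T47D-TamR with type 1 (-1.41, adjusted p = 0.0684), with the same direction each time. It was also lost with limma on the deposited log2(TPM + 1) values (-1.11, adjusted p = 0.209) and with no block (-1.14, adjusted p = 1).

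The seed match printed above was common among the genes that were lower with type 2. Of the 65 genes called lower, 57 had a 3′ UTR in the annotation, and 45 of them (78.9%) held GAAGACT, the match of siRNA 2, against 11.2% of all genes. Of the 48 genes called higher with type 2, 46 had a 3′ UTR, of which 8 (17.4%) held GAAGACT and 15 (32.6%) held ATCCAAG, the match of siRNA 1, which 8.94% of all genes hold. The median 3′ UTR was 1772 bases in the lower genes, 1502 in the higher ones and 1083 over all genes, and a longer UTR holds any heptamer more often. AGR2 was 1 of the 45. Whether the match plays a part in the level of AGR2 was not tested.

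The other genes did not pass the test of type 2 against type 1. TFF3 in BT483 was at 155.7% of control with type 2 and 79.4% with type 1, AGR3 at 152.9% (120.7 to 194.9%) and 89.2% (65.6 to 120.9%), and TFF1 at 104.6% and 68.9%. All 3 were thus higher with type 2 than with type 1 in BT483. In T47D-TamR TFF3 stood at 90.3% of control with type 2 (55.2 to 146.9%) and 111.7% with type 1 (71.1 to 175.8%), and TFF1 and AGR3 were at the floor. The log2 fold change was 0.62 for TFF1 (SE 0.25, adjusted p = 0.472), 0.61 for TFF3 (SE 0.47, adjusted p = 0.812) and 0.58 for AGR3 (SE 0.57, adjusted p = 0.857). No listed gene group had a called member, where 0.47% of all genes tested were called. Of 35 estrogen response genes 26 had a higher value with type 2, with a median log2 fold change of 0.30 against 0.01 over all genes.

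**Figure D4:**
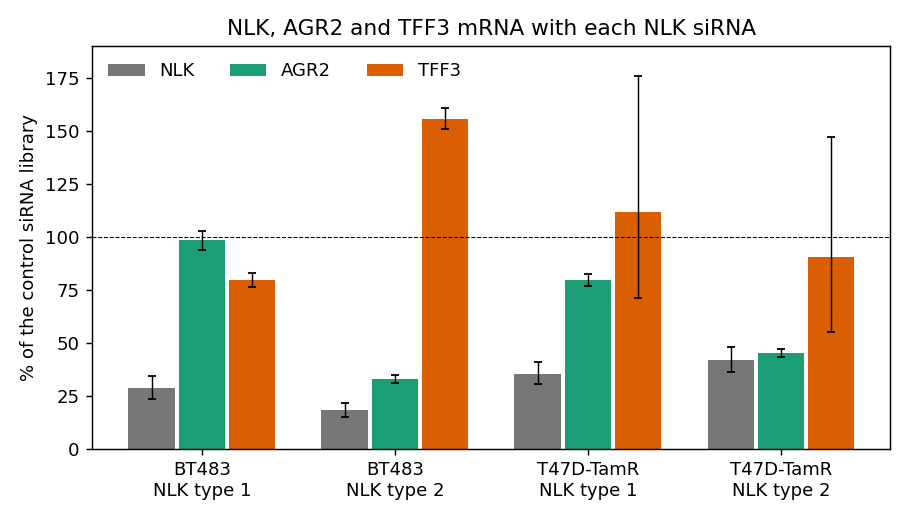
Level of NLK, AGR2 and TFF3 as a percentage of the control siRNA library of the same line (dashed line at 100%), with 95% counting intervals, for each NLK siRNA in each line. AGR2 is at 32.9 and 45.3% with type 2 and at 98.3 and 79.5% with type 1, while NLK is below 42% in all 4 libraries.

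In the drug arm of T47D-TamR, VX-702 had a single DMSO library to be set against, which also served for control siRNA, and neither comparison was tested. AGR2 had 189 CPM with VX-702 and 246.5 CPM with DMSO, or 76.7% (counting interval 73.8 to 79.7%), the lower of them still above the library with NLK siRNA type 2 at 134.3 CPM. AGR2 was the 1 gene of the 4 whose mean in T47D-TamR reached 5 CPM (228 CPM), and it did not pass a 1.5-fold difference. Of 12253 genes whose mean across all 11 libraries reached 5 CPM, 2.16% were at least 1.5-fold higher with VX-702 and 4.41% at least 1.5-fold lower. TFF1 and TFF3 met this cut through BT483, where they averaged 481.4 and 291.9 CPM. TFF3 had 55 counts with VX-702 and 29 with DMSO, a ratio of 1.98 (counting interval 1.24 to 3.23) at a level of 2.3 and 1.16 CPM. The TFF3 ratio thus passed 1.5-fold, though its interval reaches below that. AGR3 had 1 and 3 counts and TFF1 0 in both libraries, all at or under the floor.

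Control siRNA gave AGR2 at 296.5 CPM, against 246.5 CPM with DMSO, or 120.3% (116.3 to 124.4%), again without passing 1.5-fold, where 3.32% of genes were that much higher and 1.87% lower. TFF3 had 40 counts with control siRNA and 29 with DMSO, a ratio of 1.37 whose counting interval of 0.826 to 2.29 includes 1. On the log2 scale AGR2 differed from DMSO by 0.27 with control siRNA and by -0.38 with VX-702, each 1 library against 1. Of the listed groups the median log2 ratio with VX-702 was 0.23 for 33 estrogen response genes, 0.13 for 20 disulfide isomerase genes and -0.28 for 5 AGR neighbours, against 0.08 over all genes. These genes had an average of at least 5 CPM over all 11 libraries, so some estrogen response genes entered through BT483 alone. GREB1 and GFRA1, for example, averaged 0.144 and 0.0482 CPM in T47D-TamR, near the floor, and the median is limited by such genes.

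**Figure D5:**
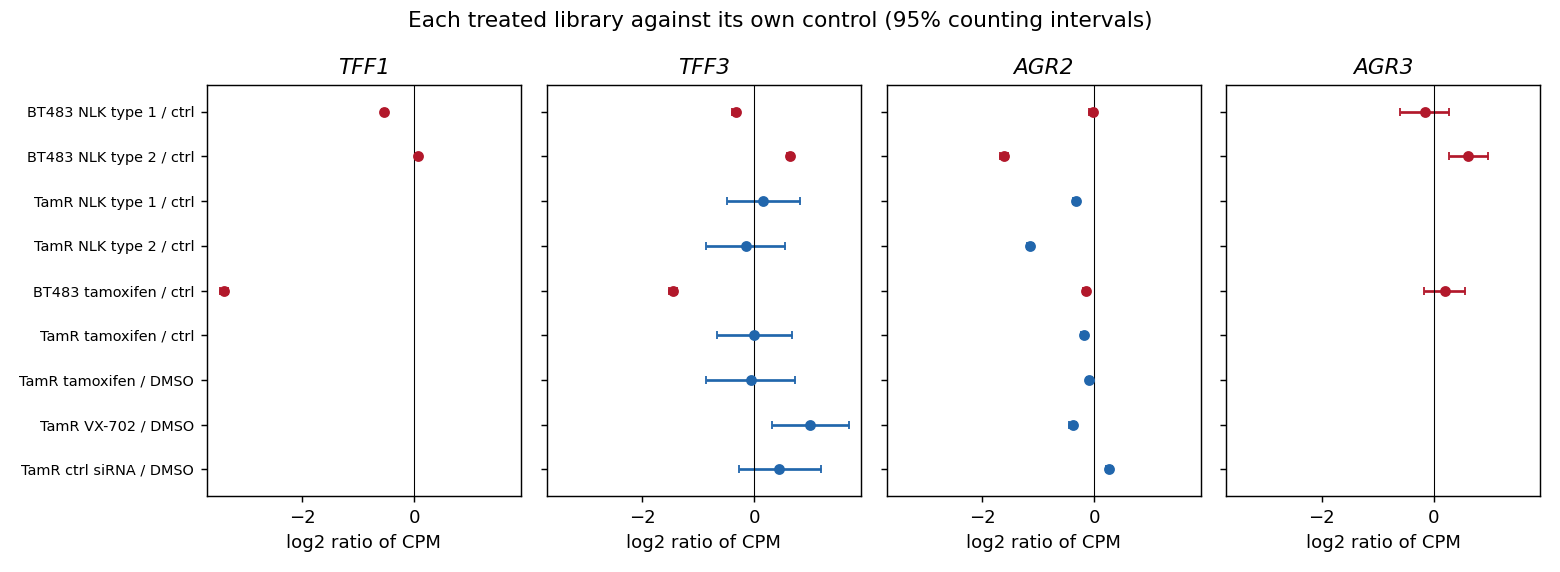
Log2 ratio of CPM for each treated library against its own control, with 95% counting intervals, in BT483 (red) and T47D-TamR (blue); ratios with fewer than 10 counts on both sides are left out. TFF1 and TFF3 lie furthest left with tamoxifen in BT483, and AGR2 lies furthest left with NLK siRNA type 2 in both lines.

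Over the 7 T47D-TamR libraries AGR2 varied between 134.3 and 296.5 CPM, and other genes followed the same pattern. The 3 genes whose log2 CPM was most like it, among 11740 with an average of at least 5 CPM, were DCP2, an mRNA decapping enzyme (Pearson r 0.99, Spearman rho 0.964), SPCS3, a subunit of the signal peptidase complex (r 0.989, rho 0.893), and the antisense RNA ZNF529-AS1 (r 0.985, rho 0.964). DCP2 had 58.1 CPM with NLK siRNA type 2, its lowest library, and 174.1 CPM with control siRNA, its highest, as AGR2 did. With 7 libraries such values are reached by many genes, and 123 genes had an r over 0.9. For TFF3, from 29 to 55 counts, the most alike were MGAT5 (r 0.948), RNASET2 (r 0.935) and RBMS1P1 (r 0.934), and 13 genes had an r over 0.9. The libraries share the line, and those of an arm share a control. TFF1 and AGR3 had too few counts in T47D-TamR for such a comparison, and the lines form separate clusters, so none was made over both.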

How the data were processed

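The authors deposited raw counts per gene for each of the 11 libraries and, per library, log2(TPM + 1) values, together with a normalized log2 TPM table of the series. The libraries were poly(A) stranded paired-end libraries, per the labels' protocols, on GRCh38, per the submitters' processing notes; for the aligner, the counter and the gene annotation, names were not given in the sources used here. Groups came from the titles. Total counts ran from 14637083 to 26915863.

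Counts were tested with edgeR 4.0.16 (R 4.3.3): TMM factors from 0.937 to 1.06, filterByExpr, robust quasi-likelihood fits and Benjamini-Hochberg adjustment over all genes, called at an adjusted p under 0.05. An additive fit of 11 libraries (24023 genes, 5 residual degrees of freedom) had the context (line and arm) as block and coefficients for knockdown, tamoxifen and VX-702. Fits per line (3 degrees of freedom) and with an siRNA type coefficient (4) used the same libraries, and the line fit used the 8 siRNA libraries with condition as block (21990 genes, 3 degrees of freedom). This made 10 tests across genes. Groups of 1 library borrow their spread from the other groups. CPM are TMM-scaled. Intervals are exact 95% Poisson or conditional binomial intervals and cover counting error only. VX-702 and control siRNA against DMSO, 1 library each, are given as ratios with no test; tamoxifen in BT483, also 1 library against 1, was tested with the spread of the other libraries.

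Members and gene lists were chosen with earlier results of these data known. Of each list, counts are given with members of large change and at least 5 CPM, and some members named for their role or level were chosen after their values were seen. On simulated counts with 100 genes changed by 1 and 100 by 2 on the log2 scale, the tamoxifen test of 3 pairs recovered 94% and 100% (21874 genes), the siRNA type test 51% and 100% (21922 genes) and the line test 95% and 100% (20839 genes). They also called 16, 8 and 12 unchanged genes. Unlike the data, the simulation had equal levels in both lines, 1 spread for all genes, changed genes well above the floor and the same change in both lines. Its shares do not give the power for the genes followed here. Alternatives were other size factors and filters, DESeq2 1.42.0, limma 3.58.1 on the deposited log2(TPM + 1) values, no block, the siRNA arm alone and leaving out each library. Positions and 3′ UTRs came from GENCODE 29, promoters from RefSeq.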

Additional observations from a re-analysis of the deposited data

How the results depend on the processing

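DESeq2's size factors in the edgeR fits changed no call and no count of genes by over 1.5 times. Fold changes fitted for TFF1 and AGR3 within T47D-TamR depend on the prior count at the floor and are not given, and no alternatives were compared for them. No paired analysis was possible because each group held 1 library and the numbers in the titles name conditions, not replicates; the blocks in the fits are line and arm, or condition. Where a cause is not plain from the setting, such as fewer genes or libraries, the cause was not tested.

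With no filter on low counts, the genes called became 249 for knockdown in both lines (1 in the edgeR fits reported), 163 in BT483 (1), 108 in T47D-TamR (1) and 21 for the difference (0). For tamoxifen they became 513 over 3 pairs (10), 670 in BT483 (357), 354 in T47D-TamR (53) and 502 for the difference (166), and for the siRNA types 339 (113). AGR2 was then called for knockdown (-0.65), and TFF3 for tamoxifen over 3 pairs (-0.74), in BT483 (-1.43) and for the difference (-1.36), so the members called were 1, 2, 2 and 1. Near-zero values changed sign for TFF3 with knockdown in T47D-TamR (-0.028) and AGR2 in the tamoxifen difference (0.057).

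With at least 10 counts in every library TFF1 and AGR3 dropped out. Genes called were 0 for each knockdown comparison, 0 for tamoxifen over 3 pairs and in T47D-TamR, and 50 for siRNA types; members called were 0 for tamoxifen over 3 pairs and in BT483, and 1 for the lines, with AGR2 at -0.28. TFF3 with knockdown in T47D-TamR was -0.016 and AGR2 in the tamoxifen difference 0.027.

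DESeq2 called 6, 2 and 7 genes for knockdown in both lines, BT483 and T47D-TamR, 120, 169 and 328 for tamoxifen over 3 pairs, in T47D-TamR and for the difference, and 354 for siRNA types. TFF1 lost its call over 3 pairs (-3.45; 0 members called) and TFF3 gained it in BT483 (-1.45; 2 members called). Limma on the deposited log2(TPM + 1) values called 0 genes for knockdown (both lines and each line), tamoxifen over 3 pairs and in T47D-TamR, and siRNA types, 13 for tamoxifen in BT483 and 2 for the difference. The calls of TFF1 (-1.45 over 3 pairs, -3.46 in BT483) and AGR2 (-1.11 between siRNAs, -0.22 between lines) were lost, leaving 0 members called in the first 3 comparisons. TFF3 with knockdown in T47D-TamR was -0.035 and AGR2 in the knockdown difference -0.056.

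Without the block, in fits that mix the lines, 0 genes and 0 members were called for knockdown, tamoxifen and siRNA types. TFF1 was -3.40 over 3 tamoxifen pairs and -1.82 in BT483, AGR2 -1.14 between siRNAs and -0.27 between lines, all 4 with their calls lost. Signs turned for TFF1 with knockdown (0.38 in both lines, 1.38 in BT483), TFF3 with knockdown in T47D-TamR (-6.04), with tamoxifen in BT483 (0.13) and in the tamoxifen difference (6.41), AGR3 over 3 tamoxifen pairs (0.17) and AGR2 in the knockdown difference (-0.29). With the siRNA arm alone 0 genes were called for knockdown and 37 for siRNA types, and AGR3 with tamoxifen was 0.19. Of settings chosen after seeing the data, type 1 alone gave TFF3 at -0.094 and AGR3 at -0.032, and type 2 alone gave AGR2 at -1.35, 1 member and 227 genes called. For VX-702 against DMSO AGR2 was -0.52 in the deposited log2(TPM + 1) values and -0.57 in the normalized table (-0.38 in CPM), and for control siRNA 0.21 and 0.18 (0.27 in CPM).

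With each library left out in turn where the effect could still be fitted, genes called ranged from 0 to 2 for knockdown in both lines, 0 to 149 in BT483, 0 to 23 in T47D-TamR and 0 to 5 for the difference. They ranged from 0 to 81 for tamoxifen over 3 pairs, 190 to 480 in BT483, 0 to 100 in T47D-TamR and 0 to 271 for the difference, and from 0 to 406 between siRNAs. The count in BT483 of 149 came without NLK siRNA type 1 of BT483, that of 23 without type 1 of T47D-TamR, the 81 without BT483 control siRNA and the 406 without BT483 control siRNA with tamoxifen; the siRNA count was 0 without type 1 of either line, and the T47D-TamR tamoxifen count was 0 without any of its 4 libraries. The ranges for BT483 and for the differences never leave out BT483 control siRNA, nor, for tamoxifen, BT483 control siRNA with tamoxifen, since the effect cannot be fitted without them. Members called ranged from 0 to 1 for tamoxifen over 3 pairs and between siRNAs, and from 1 to 2 for tamoxifen in BT483. Over both lines with knockdown TFF1 ranged from -2.48 to -0.066, AGR2 from -1.06 to -0.40, TFF3 from -0.17 to 0.53 and AGR3 from -0.26 to 0.68. In BT483 with knockdown AGR2 ranged from -1.59 to -0.025, TFF1 from -0.54 to 0.079, TFF3 from -0.33 to 0.65 and AGR3 from -0.17 to 0.63; in T47D-TamR AGR2 from -1.12 to -0.31 and TFF3 from -0.16 to 0.14; in the difference TFF3 from -0.33 to 0.72 and AGR2 from -0.87 to 0.63. Over 3 tamoxifen pairs TFF1 ranged from -5.67 to -3.08, TFF3 from -1.10 to 0.027 and AGR3 from -4.02 to 0.22. In BT483 with tamoxifen TFF3 ranged from -1.45 to -1.41, in T47D-TamR from -0.11 to 0.0029, and AGR2 in the difference from -0.058 to 0.12. Between siRNAs AGR2 ranged from -1.49 to -0.91, TFF1 from -0.42 to 4.39, TFF3 from -0.39 to 1.01 and AGR3 from -2.37 to 0.82. Between lines AGR2 ranged from -0.49 to -0.26.

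Depth limits TFF1 and AGR3 in T47D-TamR, where a change below 3 counts was not detectable, and TFF3 there, at 29 to 55 counts.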

Other observations

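The goblet and mucous cell markers listed, which leave out MUC5B, were low in both lines. The 6 genes, which include TFF2 but none of the 4 genes followed here, summed to 6.33 to 9.7 CPM in BT483 and 10.1 to 16.1 CPM in T47D-TamR, and CDX2, an intestinal transcription factor, had 0 counts in every library. MUC5B, the gel-forming mucin with the largest difference between the lines among the secreted proteins listed, had 960.9, 571.7, 404.3 and 906.8 CPM in BT483 with NLK siRNA type 1, type 2, control siRNA with tamoxifen and control siRNA. Its lowest BT483 library was, as for TFF1 and TFF3, the one with tamoxifen. ACKR3, a chemokine receptor, went the other way in that library, with 280.4 CPM with tamoxifen and 132.3 CPM with control siRNA. Each is 1 library against 1, and neither MUC5B nor ACKR3 was called for tamoxifen in BT483.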
